A study of Drosophila melanogaster with 6 samples.

Results

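Neurons make, package and recapture their transmitters with a small set of dedicated proteins, and 10 genes that encode them in Drosophila melanogaster were examined for peaks of N6-methyladenosine (m6A), a methyl mark on adenosines inside mRNA. The genes encode 4 synthesis enzymes (ple, Ddc, ChAT and Gad1), 4 vesicular transporters (Vmat, VAChT, VGlut and VGAT) and 2 transporters of the plasma membrane (DAT and SerT). Peaks were taken as theirs when the midpoint lay in the RefSeq span of the gene, whatever the number of reads, which gave 58, 11 and 12 peaks of the 14329, 7232 and 6645 peaks in the lists of replicates 1, 2 and 3. These 10 genes stand among 13922 protein-coding genes on the chromosomes of the lists.

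All libraries came from heads of male and female w1118cs flies kept on a standard diet, with about 800 heads and 20 µg of poly(A)-selected RNA per biological replicate. In the 3 CLIP libraries, fragmented RNA was bound by an antibody against m6A, crosslinked to it with ultraviolet light and recovered. The 3 input libraries were not enriched. There is no second genotype, treatment or age, so the comparisons are CLIP with input, these genes with all genes, and the 3 lists with each other.

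Tyrosine hydroxylase (ple) makes dopa in the rate-limiting step of dopamine synthesis, and Ddc decarboxylates dopa to dopamine and 5-hydroxytryptophan to serotonin. Vmat loads these amines into vesicles, while DAT and SerT take dopamine and serotonin back up from outside the cell. ChAT makes acetylcholine, the main fast excitatory transmitter of the fly brain, and VAChT loads it. Gad1 makes GABA from glutamate, VGAT loads GABA and VGlut loads glutamate. ChAT and VAChT form a single cholinergic locus in which the start of transcription is shared and VAChT lies within an intron of ChAT. In fly mRNA, m6A has been mapped mostly near the start of transcripts.

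The sample label says neurons, but the material is whole heads, and markers of other cells were well represented. Of the 7 neuronal markers looked up, 6 had a peak in each list, and elav, the pan-neuronal RNA-binding protein, had 2, 1 and 0 peaks. Of 6 glial markers 4 had a peak in each list, with moody at 0 in all of them, as did 6 of 6 photoreceptor markers, 4 of 5 fat body markers and 4 of 5 muscle markers. The part these cells play in the results below was not tested. In bulk RNA of this kind, fewer cells of a type and less RNA per cell cannot be told apart. The lists held 1186393, 20396270 and 5880782 CLIP reads in peaks, and the lowest peak had 7, 25 and 7 CLIP reads per bin of 50 bp.

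Peaks were called in the spans of 7 of the 10 genes in replicate 1, 6 in replicate 2 and 5 in replicate 3, against 27.3%, 17.6% and 16.9% of all protein-coding genes. In at least 1 list, 7 of 10 genes had a peak, against 29.3% of all genes. In all 3 lists 5 of 10 had a peak (ple, ChAT, VAChT, VGlut and Gad1), against 13.7% of all genes and 26.9% of the 5668 genes whose span is at least as long as the 2772 bp of the shortest of the 10 spans. Since ChAT and VAChT share each of their peaks, these 5 genes stand for 4 separate loci. No test was made of these shares, because the genes were chosen with results of these data known.

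Of the 4 enzymes, ple, ChAT and Gad1 had peaks in all 3 lists and Ddc had them in 2. Of the 4 vesicular transporters, VGlut and VAChT had peaks in all 3 lists, Vmat had them in replicate 1 alone and VGAT had none. Each peak of ChAT and VAChT lay in both spans, so it cannot be given to the enzyme or to the transporter. Neither of the plasma membrane transporters, DAT and SerT, had a peak in any list. Reads outside peaks were not used here, so a gene with none cannot be called free of m6A, and its RNA level was not analysed here.

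**Figure D1:**
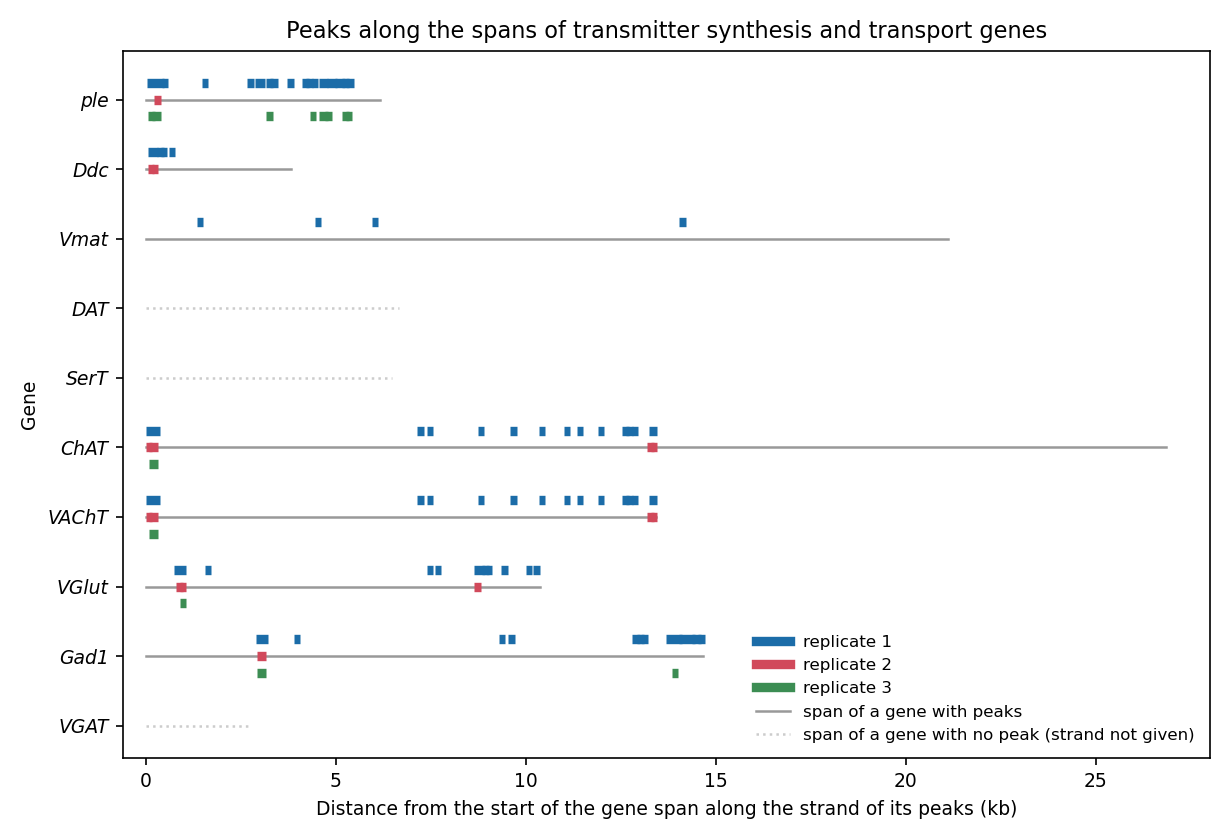
Position of each peak (coloured marks, 1 row per replicate, widened by 60 bp on each side to be visible) along the span of each gene, in kb from the start of the span on the strand of its peaks. Peaks of all 3 replicates meet near the start of ple, of the shared ChAT and VAChT span and of VGlut, and about 3 kb into Gad1, while replicate 1 has further peaks along the rest of the spans.

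Every peak in these genes lay on a single strand per gene: minus for ple, Ddc, Vmat and Gad1, plus for ChAT, VAChT and VGlut. The reference table gives no strand or exons, so the start of a gene below means the end of its span from which that strand is read, and exon, intron and UTR were not assigned. Coordinates are those of the deposited lists, on dm6 per the submitters' processing notes.

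Exactly 4 regions in these genes were called in all 3 lists, and all 4 lay in the first 25% of the span. That limit was set after positions were seen, so the count of 4 is description only. The share was 44.1% for the 3650 such regions that fall in exactly 1 protein-coding gene, a set without the ChAT/VAChT region. With a region of this kind counted per gene, 5 of 10 genes had at least 1, against 12.3% of all protein-coding genes. The median position of the 3650 regions was 35.0% of the span. The 4 regions lay at 0.743% of the ChAT span, which is 1.49% of the VAChT span, at 4.87% of ple, at 9.46% of VGlut and at 20.8% of Gad1.

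In the cholinergic locus, on the plus strand of 3R (span 18705501 to 18732344 for ChAT and to 18718916 for VAChT), the shared region covered 18705651 to 18705750, from 150 to 249 bp after the common start. The lists give 1 value per peak, so reads at a region here and below are means over the whole peak that covers it in each replicate, and some peaks are wider than the region. For the peaks at this region, which were 250, 100 and 100 bp wide in replicates 1, 2 and 3, CLIP gave 19.2, 54 and 9 reads per bin and input gave 9.94, 5.48 and 5.92. CLIP exceeded input in each replicate, by the widest margin in replicate 2. The libraries differ in size and their reads are unscaled, so a ratio can be read only against its own list, and each log2 ratio (with 1 read added to CLIP and input) is therefore also given minus the median of all peaks of that list. On that scale the peak was above its list median in each replicate, at 0.72, 1.50 and 0.95, a mean of 1.06 ± 0.40 (SD, n = 3). The unscaled log2 ratio was 1.50 ± 1.38, and its SD includes the offset between lists.

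The rest of the cholinergic peaks lay in the VAChT part as well. Replicate 1 had 13 peaks, replicate 2 had 4 and replicate 3 had 1, and all 18 fell in the 13416 bp that ChAT shares with VAChT. None fell in the 13428 bp from 18718917 to 18732344 that belong to ChAT alone. The peaks beyond the common start began 7200 bp into the locus, at 18712701, and ended at 18718900, next to the end of the VAChT span. There, the region from 18718851 to 18718900 (99.7% of VAChT) was called in replicates 1 and 2, in peaks of 100 and 50 bp where CLIP gave 7.5 and 38 reads per bin and input gave 10.2 and 9. It lay below the median of its list in replicate 1 (−0.57) and above it in replicate 2 (0.38). Minus the list median, the peak with the highest ratio in the locus (2.29), at 18712701 to 18712750, was called in replicate 1 alone. It rested on 10 CLIP reads (95% exact Poisson interval 4.80 to 18.4) and 1 input read. Such intervals cover counting error only.

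Gad1, on the minus strand of 3L (4074077 to 4088744), had the region with the most CLIP reads of the 4 in each replicate. It covered 4085651 to 4085750, from 2994 to 3093 bp after the start. Over the peaks that cover it, 200, 100 and 100 bp wide in replicates 1, 2 and 3, CLIP gave 27, 94 and 24 reads per bin and input 17.2, 15.0 and 15.0. The Poisson intervals of the CLIP reads were 22.2 to 32.6, 81.0 to 108.4 and 17.7 to 31.8, and each lay above the input value of its replicate. That is no test of enrichment, because peaks were chosen for their CLIP reads and the libraries are unscaled. The input values carry counting error as well. Minus the list median, the log2 ratio was 0.45, 0.99 and 1.06, a mean of 0.83 ± 0.33 (SD, n = 3).

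Replicate 1 had 10 more peaks in Gad1. Of these, 7 lay between 4074101 and 4075900, in the far end of the span, where CLIP ranged over 7 to 11.5 reads per bin and input over 5 to 20. Outside the first 25% of Gad1, 3 of 10 peaks of replicate 1 were above the list median, and the median peak was at −0.81. In replicate 3, 1 peak of 7 CLIP reads against 8 input reads lay in the same far end, at 4074801 to 4074850, and overlapped a peak of replicate 1. The log2 ratio of this replicate 3 peak was above its list median, by 0.25.

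VGlut, on the plus strand of 2L (2400295 to 2410662), had its shared region at 2401251 to 2401300, from 956 to 1005 bp after the start. The peaks that cover it were 200, 50 and 50 bp wide in replicates 1, 2 and 3, and over them CLIP gave 16.2, 62 and 9 reads per bin and input 6.93, 11 and 9. CLIP exceeded input in replicates 1 and 2 and equalled it in replicate 3, where the Poisson interval of the 9 CLIP reads ran from 4.12 to 17.1. Minus the list median, the log2 ratio was 0.95, 0.81 and 0.42, a mean of 0.72 ± 0.28 (SD, n = 3). A nearby bin, 2401151 to 2401200, was also called in replicates 1 and 2. In the far part of the gene, replicate 1 had 8 peaks from 2407751 on, of which 4 were above the list median. The last of them, at 2410551 to 2410600, had 15 CLIP reads and 5 input reads and lay at 99.2% of the span. Replicate 2 had 1 far peak, at 2409001 to 2409050. It held 32 CLIP reads and 5 input reads, and it overlapped a peak of replicate 1.

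The dopamine enzyme ple, on the minus strand of 3L (6713356 to 6719525), had the most peaks of the 10 genes, 16, 1 and 8 in replicates 1, 2 and 3. For comparison, genes with a peak in all 3 lists had medians of 4, 2 and 2 peaks. Its region called in all 3 lists covered 6719201 to 6719250, from 275 to 324 bp after the start. It is covered by peaks of 350, 50 and 100 bp in replicates 1, 2 and 3, over which CLIP gave 11.9, 29 and 11 reads per bin and input 10.6, 16 and 20.2. CLIP was above input in replicates 1 and 2 and below it in replicate 3. Minus the list median the log2 ratio was −0.02, −0.76 and −0.40, a mean of −0.39 ± 0.37 (SD, n = 3), the lowest of the 4 regions in each replicate.

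Peaks of ple ran along nearly the whole span, and few had a high ratio. Replicates 1 and 3 shared 5 further regions that replicate 2 did not hold, 4 of them beyond the middle of the span and 1 at 6719351 to 6719400 near the start. In replicate 3, all 8 ple peaks had fewer CLIP reads (7 to 13 per bin) than input reads (14 to 28 per bin). That was common in this list, where the medians over all peaks were 10 CLIP reads, 14 input reads and a log2 ratio of −0.415. Of all replicate 3 peaks in the genes examined, 9 of 12 had fewer CLIP than input reads. Minus the list median, the ple peaks of replicate 3 lay between −1.15 and −0.32. In replicate 1, 5 of 16 ple peaks had fewer CLIP than input reads, with 8 to 13.5 against 11 to 15.7 reads per bin. The same held for 25 of the 58 replicate 1 peaks in the genes examined. The single peak of replicate 2 had 29 CLIP reads, near the lowest of 25 in that list.

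Ddc, on the minus strand of 2L (19116483 to 19120306), had 4, 2 and 0 peaks, and all 6 lay in the first 25% of the span. In replicate 1 the peak from 19120051 to 19120200 held 15 CLIP and 5.52 input reads per bin, 1.13 above the list median on the log2 scale. In replicate 2 the outer bins of that interval were called separately, at 56 and 38 CLIP reads and 9 and 8 input reads, 0.93 and 0.53 above the list median. They lay from 106 to 255 bp after the start. The other Ddc peaks of replicate 1 lay farther in, starting at 19119901, 19119801 and 19119601, with counts of 9, 7 and 7 in CLIP and 5, 8 and 8 in input. Replicate 3 had no peak in Ddc, and the lowest peak of that list had 7 CLIP reads.

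Vmat, on the minus strand of 2R (13513132 to 13534251), had 4 peaks of 1 bin, all in replicate 1. CLIP gave 13, 10, 9 and 7 reads and input 11, 4, 10 and 6, in order from the start at 1401, 4501, 6001 and 14101 bp. The intervals of these counts are wide (for 10 reads, 4.80 to 18.4), and none of the 4 peaks recurred.

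**Figure D2:**
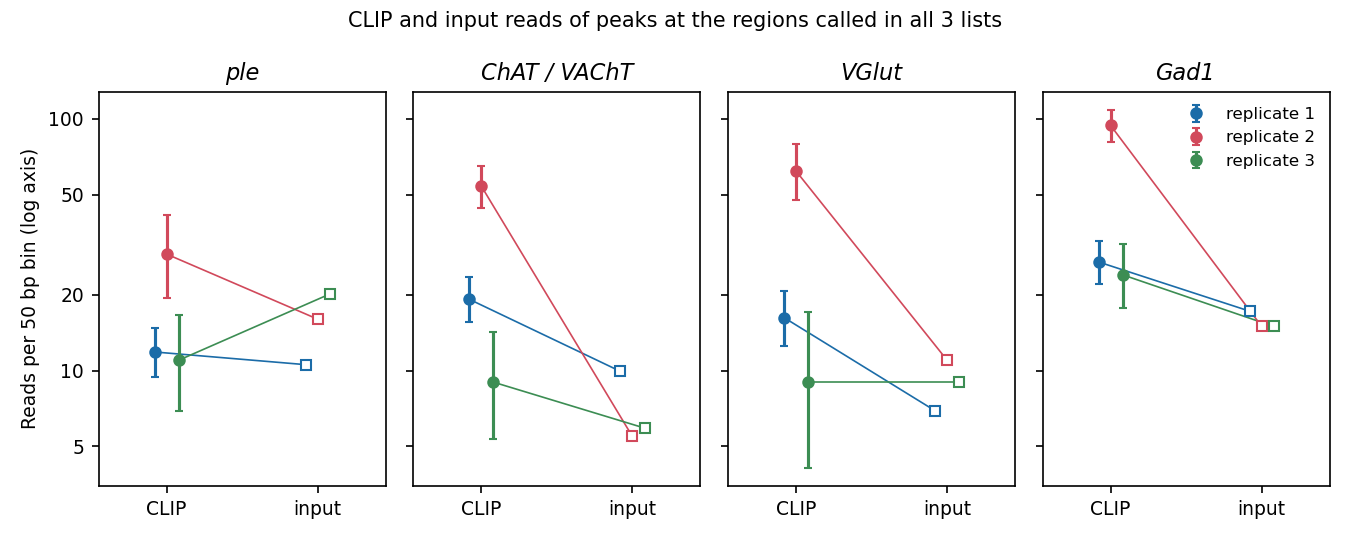
CLIP reads (filled circles, with 95% exact Poisson intervals) and input reads (open squares) per 50 bp bin on a log axis, for the peaks at the 4 regions called in all 3 lists, with a line joining the libraries of each replicate. CLIP lies above input in each replicate at ChAT/VAChT and Gad1, while at ple the input of replicate 3 is higher (11 CLIP reads against 20.2 input reads). The median log2 ratio over all peaks of replicate 3 is −0.415.

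Set side by side, the regions fell in the order ChAT/VAChT, Gad1, VGlut and ple by mean log2 ratio over the list median. The means of ChAT/VAChT, Gad1 and VGlut (1.06, 0.83 and 0.72) differed by less than the SD over replicates of the first (0.40). The region of ple was lower than these in each replicate. Among the 3650 regions called in all 3 lists in exactly 1 gene, the means stood at the 59.3th, 55.6th, 54.4th and 43.6th percentile. Among such regions in the first 25% of spans, whose median was 1.61, they stood at the 27.7th, 22.7th, 20.7th and 12.9th percentile. The 4 regions were thus near the middle of all recurrent regions and in the lower part of those near gene starts.

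Position and list went together. Of the peaks in these genes, 12 of 58 in replicate 1 (20.7%, 95% Wilson interval 12.2 to 32.8), 8 of 11 in replicate 2 (72.7%, 43.4 to 90.2) and 5 of 12 in replicate 3 (41.7%, 19.3 to 68.0) lay in the first 25% of the span. For all peaks in exactly 1 protein-coding gene the shares were 32.7%, 40.9% and 38.7%. Peaks of 1 gene are not independent, and the difference was not tested. In replicate 1, 16 of the 58 peaks in these genes were at the list minimum of 7 reads, against 0 of 11 at the minimum of 25 in replicate 2 and 2 of 12 at the minimum of 7 in replicate 3. The same share over all peaks of each list is not given here, so these counts cannot be read as a trait of these genes.

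Peaks near the start had the higher ratios in each list. The median log2 ratio minus the list median was 0.43, 0.75 and 0.42 in the first 25% of the span, against −0.17, 0.38 and −0.58 in the rest, in replicates 1, 2 and 3. The rest held 46, 3 and 7 peaks. In replicate 3, 6 of those 7 were of ple, so that gap mixes genes with positions. Within ple in replicate 3 the medians were −0.38 near the start and −0.58 in the rest. Over all peaks in exactly 1 gene the medians were 1.21, 1.13 and 1.42 against −0.34, −0.79 and −0.57. The gap in these genes had the direction of the gap over all genes and was smaller in each replicate. It ran the other way for ple in replicate 1, with medians of −0.30 near the start and 0.02 in the rest, and for VGlut in replicate 2, with 0.75 near the start and 0.88 at its single far peak.

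**Figure D3:**
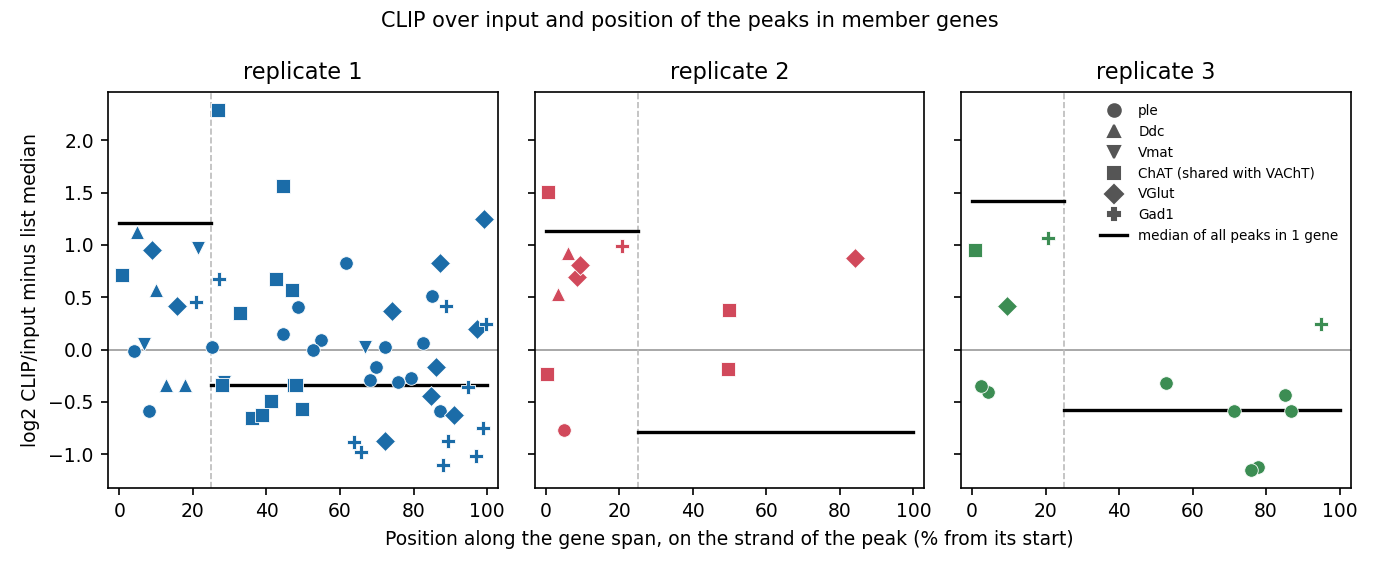
Log2 ratio of CLIP to input minus the median of the list (vertical axis) against position in the span (percent from its start on the strand of the peak) for the 58, 11 and 12 peaks in these genes, with black lines at the medians of all peaks in exactly 1 gene within and beyond the first 25% (dashed line). Most peaks near the start lie between the list median at 0 and the upper black line, and ple peaks lie at or below 0 there.

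The calls overlapped unevenly. Of the 11 peaks of replicate 2, 10 overlapped a peak of replicate 1, as did 10 of the 12 peaks of replicate 3. Read from the other side, 7 of the 58 peaks of replicate 1 overlapped replicate 2 and 9 overlapped replicate 3. Between the shorter lists, 4 of 11 and 4 of 12 peaks overlapped, and those are the 4 regions described.

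A wider set of 31 genes for the synthesis, transport and breakdown of transmitters was looked up as background. Of these, 15 had a peak in all 3 lists (48.4%, against 13.7% of all genes), 3 in 2 lists, 8 in 1 list and 5 in none. That comparison is not matched for span length. Among the 5668 genes with spans of at least 2772 bp the share was 26.9%, and some of the 31 spans are shorter. The 15 were Hn, Pu, ebony (e), tan (t), speck, Eaat1, Eaat2, Gs2, Gdh, ChT, Ace, Ntl, Got1, Got2 and lovit. Several also serve metabolism or the cuticle, and some are glial. The 5 with none were Trhn, Tdc2, prt, Balat and gb, among them the neuronal tryptophan hydroxylase that starts serotonin synthesis (Trhn) and the tyrosine decarboxylase of tyramine and octopamine neurons (Tdc2). With SerT also at 0, neither Trhn nor the reuptake transporter of serotonin had a call. Having none was the usual result, as 29.3% of all protein-coding genes had a peak in at least 1 list. Ddc and Vmat, which also serve serotonin, had 4, 2 and 0 peaks and 4, 0 and 0 peaks.

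The most peaks in this wider set were those of a glutamate enzyme and of both Eaat transporters. Gdh, mitochondrial glutamate dehydrogenase, had 8, 9 and 9 peaks, and Eaat1, the glial glutamate transporter, had 16, 3 and 6. Their highest regions were below the list median, at −0.32 ± 0.45 for Gdh and −0.25 ± 0.24 for Eaat1 (SD, n = 3). Eaat2, a related transporter, had 11, 7 and 5 peaks. In the peaks at its highest region, at 12.8% of the span, CLIP gave 100.6, 189.4 and 35.2 reads per bin and input 15.2, 20.4 and 14.2, which is 1.90 ± 0.50 over the list median (SD, n = 3). Pu, whose product is needed for the cofactor of ple, had 5, 7 and 8 peaks, with its highest region at −0.44 ± 0.62. Tan, which releases dopamine and histamine from their conjugates, had 9, 5 and 3 peaks, with its highest region at −0.52 ± 0.67. The acetyltransferase speck had 7, 2 and 6 peaks and the glutamine synthetase Gs2 had 4, 5 and 6, with highest regions at 0.01 ± 0.68 and −0.80 ± 0.36.

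The spans of Ace and ChT, cholinergic partners of ChAT and VAChT, also held peaks in all lists. Ace, the acetylcholinesterase that ends the signal, had 7, 1 and 1 peaks and was singled out after its values were seen. In the peaks at its region at 2.65% of the span, CLIP gave 30.7, 90.2 and 13.8 reads per bin and input 5.61, 8.86 and 5.69, which is 1.76 ± 0.29 over the list median (SD, n = 3). That is higher in each replicate than the region at the shared start of ChAT and VAChT, a difference that was not tested. ChT, the transporter that brings choline back into the terminal, had 3, 1 and 1 peaks. Of these, 1, 0 and 0 lay in no other protein-coding span, so its peaks in replicates 2 and 3 cannot be given to ChT alone.

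**Figure D4:**
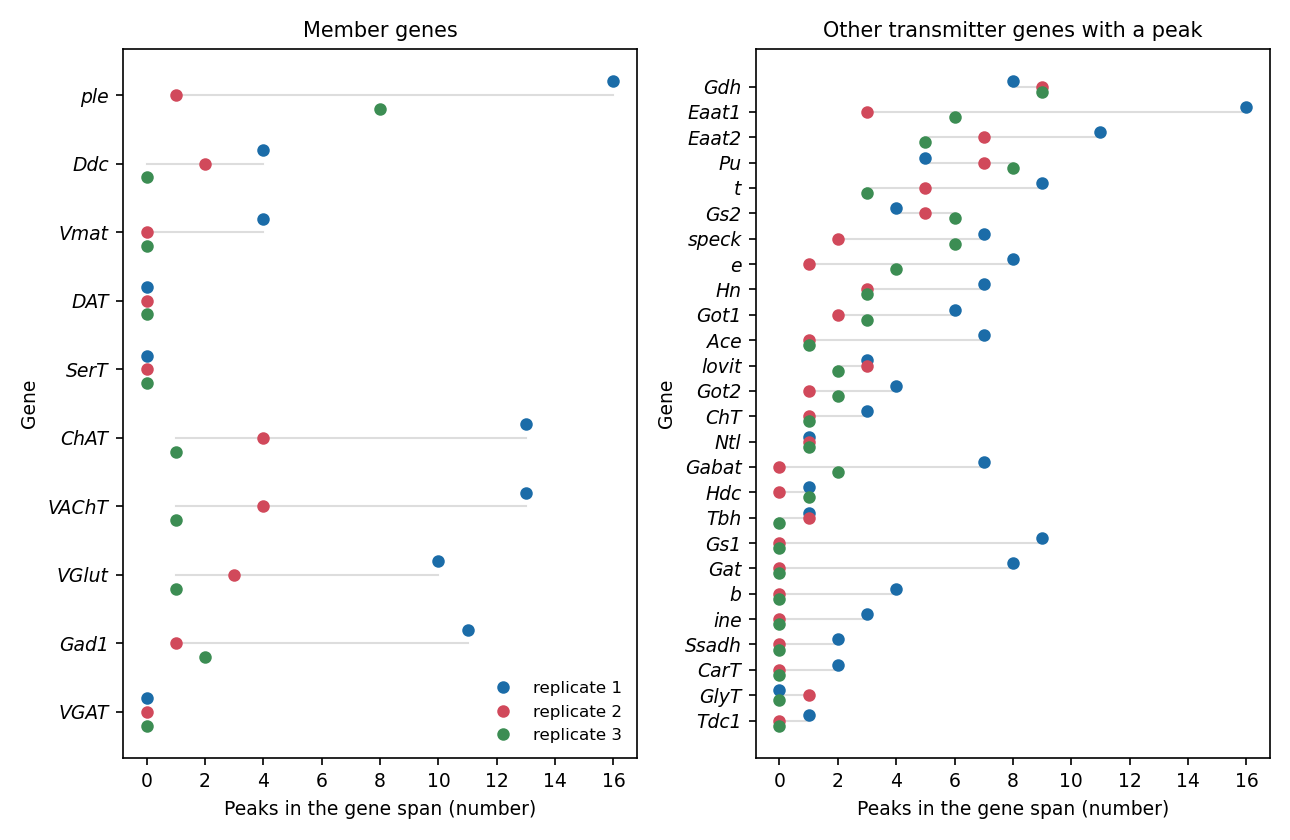
Number of peaks in the span of each gene (horizontal axis) in the 3 replicates (colours), for the 10 genes on the left and for the other transmitter genes with a peak on the right. Replicate 1 has the highest count at each of the 7 genes on the left with a peak, while DAT, SerT and VGAT are at 0 in all 3 lists.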

How the data were processed

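m6A-CLIP and input libraries from heads were deposited by the authors as 3 peak lists without a header, 1 per replicate and not pooled. STAR 2.7.5a and the builds dm6 and BDGP6 are named in the submitters' processing notes, while the peak caller and its thresholds are not given in the sources used here. The deposited signal counts CLIP reads, averaged over the 50 bp bins of a peak and left unscaled: its product with the number of bins was whole for 100% of peaks (relative tolerance 1e-05). The authors deposited input on a natural log scale, as a mean over bins, and its exponential was whole in 100% of peaks of 1 bin (tolerance 1%). In wider peaks input is thus a geometric mean, which leans the ratio upward. The lists have no header, so the meaning of these columns was read from their values. Whether 1 read was added to input before the log is not known, so each input value given here could be 1 read too high. The deposited p-value of each peak, per the file values, was used only to rank peaks for alternatives.

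Spans came from the RefSeq table of Release 6 plus ISO1 MT. All 10 genes matched by symbol, and 2 of 31 related genes by another case or a synonym. A region called in all lists is the shared part of overlapping peaks on the same strand. The log2 ratio used a pseudocount of 1 read. Named were all 10 genes, each region called in all 3 lists, all peaks of genes without one (up to 5), and related genes with a peak in every list, with values for the 6 with the most peaks (7 with a tie). Ratios got no test, since each peak was chosen for its CLIP reads and 3 paired values cannot give a two-sided exact p below 0.25. The genes and lists were chosen with earlier results of these data known, and the limit of 25% of the span was set after positions were seen. On simulated data, 600 of 600 planted peaks and 100 of 100 planted shared regions in 200 genes were recovered. The planned motif search needs a genome sequence and was not run. Computation used Python 3.11.15, pandas 2.3.3 and scipy 1.17.1.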

Additional observations from a re-analysis of the deposited data

How the results depend on the processing

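Of 38 recomputed values, 27 were scored as the same and 11 were not. A count was the same when 2 times the larger value was at most 3 times the smaller. Ratios and positions were the same when they kept their sign and moved by less than the SD over lists. For the ratio, that SD includes the offset between lists. The mean of 27 peaks per list in these genes rests on replicate 1: leaving out each replicate gave 11.5 (without replicate 1) to 35, and the 50% of peaks with the lowest p-values gave 9.67. The 5 genes with a peak in all 3 lists became 3 (ple, VGlut and Gad1) when peaks also in another span were dropped, which removes ChAT and VAChT by construction. They became 1 (Gad1) with the lowest p-values, and also 1 (Gad1) with peaks of at least 2 times the list minimum, an alternative chosen after seeing the data. The 4 regions called in all lists became 0 with the lowest p-values. Leaving out each replicate gave 4 to 10 regions, 10 without replicate 2 or without replicate 3. The related genes with a peak in all 3 lists numbered 7, in place of 15, with the lowest p-values. The cause was not tested.

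The median log2 ratio at the 4 regions was 1.17 ± 1.17 (SD over lists, n = 3). Leaving out each replicate gave −0.29 (without replicate 2, over 10 regions, 6 of which replicate 2 does not hold) to 1.61 (without replicate 3). With the input averaged over the lists, so with no replicate block, it was 1.17. It was 0.72 ± 0.16 minus the list medians, and 0.67 over the regions with at least 10 input reads per bin on average over the lists (ple and Gad1). No region was 1 bin wide in each list, so that alternative gave no value. The median position along the plus strand was 47.3% of the span, with 26.4% without replicate 1 to 49.6% without replicate 3, and 52.7% along the strand of the peaks, an orientation chosen after seeing the data. The full set held 99 pairs of peak and gene, as each peak shared by ChAT and VAChT was counted in both spans. Depth limits single peaks most in replicates 1 and 3, where many hold 7 to 10 reads.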

Other observations

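Several other genes of GABA, glutamate and beta-alanine had no peak in replicate 2, where 17.6% of all protein-coding genes had one. No peak was thus the usual result in that list, and it is no trait of these pathways. Gdh, Eaat2, Gs2 and Eaat1 had 9, 7, 5 and 3 peaks there. Gat, the GABA transporter, lies on chromosome 4 and had 8, 0 and 0 peaks. The glutamine synthetase Gs1 had 9, 0 and 0 peaks, all of which also lay in another protein-coding span. Gabat, which breaks GABA down, had 7, 0 and 2 peaks, and black (b), an aspartate decarboxylase that makes beta-alanine, had 4, 0 and 0.

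Within 2 kb outside the 10 spans, replicate 1 had 5 peaks and the other lists had none. At DAT, 3 peaks with 7, 7 and 8 CLIP reads against 2 input reads each lay in the spans of Syn2 and CG4945. At SerT, 1 peak with 8 CLIP reads against 8 input reads lay in Rpn8, and at Gad1, 1 peak with 8 CLIP reads against 7 input reads lay in CG14989. All 5 were on the plus strand.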
